A study of Homo sapiens with 21 samples.

Results

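The expression of 10 genes of insulin and insulin-like growth factor (IGF) signalling was measured in cells labelled HepG2 that were given coumarin for 6 h. The genes are the forkhead transcription factors FOXO1, FOXO3 and FOXO4, the receptors INSR and IGF1R, the receptor substrates IRS1 and IRS2, and the secreted IGF-binding proteins IGFBP1, IGFBP3 and IGFBP6. They were taken by symbol from the gene count table, where each matched 1 of 58735 genes, and 10 of 10 were among the 16196 genes with enough reads to be tested. The study held 21 libraries in 7 groups of 3, given coumarin at 0, 0.001, 0.01, 0.1, 1, 10 or 100 µM. HepG2 is an established line derived from a human liver tumour, and coumarin is a plant benzopyrone. Every group, the 0 µM control included, was moved from serum-containing medium to fresh serum-free DMEM for the exposure, and the coumarin stock was made in DMEM. The 3 libraries of a dose are labelled biological replicates, with no statement that the cultures were grown on separate days. The p-values rest on the spread between libraries of the same dose, estimated over all 7 groups in 1 fit.

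Insulin binds the receptor encoded by INSR, and IGF1 and IGF2 bind that encoded by IGF1R. Both receptors phosphorylate the adaptor proteins IRS1 and IRS2, which recruit PI3-kinase and lead to activation of AKT. AKT phosphorylates FOXO factors and keeps them out of the nucleus; when AKT activity is low, FOXO factors enter the nucleus and transcribe genes that include, in liver, IGFBP1 and IRS2. IGFBP proteins bind IGFs outside the cell, where IGFBP3 carries most of the IGF in blood. Much of this control acts on proteins by phosphorylation, which RNA counts do not measure.

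Promoter windows of 300 bases, from 250 before to 50 after the annotated start, were read for 9 of the 10 genes, all but IGFBP1, from RefSeq (GRCh38.p14). The 9 genes had 12 windows, since FOXO3 had 4. Each was searched on both strands for the forkhead core GTAAACA, the insulin response element core CAAAACA, the first letters of the ATF4 composite element TGATGCA and the E-box CACGTG. The sequences below show the windows with a forkhead or insulin response core, in IRS2, FOXO4 and IGFBP6, and that of IGFBP3, the most abundant of the 10 transcripts, which held none of the 4 motifs. They run 5′ to 3′ on the strand of the gene, from 250 bases before the start to 30 after it (280 bases each), with motif letters in capitals.
IRS2 (chr13:109786554-109786833, minus strand): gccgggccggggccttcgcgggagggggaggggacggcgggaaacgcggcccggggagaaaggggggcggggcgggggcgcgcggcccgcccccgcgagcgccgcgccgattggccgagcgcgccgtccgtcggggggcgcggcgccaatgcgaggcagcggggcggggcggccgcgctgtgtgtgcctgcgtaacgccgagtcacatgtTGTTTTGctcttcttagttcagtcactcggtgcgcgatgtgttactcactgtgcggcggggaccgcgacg
FOXO4 (chrX:71095601-71095880, plus strand): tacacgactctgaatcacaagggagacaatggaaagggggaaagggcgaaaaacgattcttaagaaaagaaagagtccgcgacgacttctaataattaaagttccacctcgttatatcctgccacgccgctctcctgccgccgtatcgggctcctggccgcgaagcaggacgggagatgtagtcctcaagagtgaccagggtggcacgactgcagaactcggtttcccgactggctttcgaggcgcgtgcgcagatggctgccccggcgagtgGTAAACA
IGFBP6 (chr12:53097417-53097696, plus strand): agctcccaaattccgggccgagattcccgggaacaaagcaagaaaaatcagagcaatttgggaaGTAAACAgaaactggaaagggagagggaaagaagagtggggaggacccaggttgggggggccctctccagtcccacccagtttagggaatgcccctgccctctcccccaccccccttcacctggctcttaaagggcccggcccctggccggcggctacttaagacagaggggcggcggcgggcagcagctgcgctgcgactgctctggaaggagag
IGFBP3 (chr7:45921243-45921522, minus strand): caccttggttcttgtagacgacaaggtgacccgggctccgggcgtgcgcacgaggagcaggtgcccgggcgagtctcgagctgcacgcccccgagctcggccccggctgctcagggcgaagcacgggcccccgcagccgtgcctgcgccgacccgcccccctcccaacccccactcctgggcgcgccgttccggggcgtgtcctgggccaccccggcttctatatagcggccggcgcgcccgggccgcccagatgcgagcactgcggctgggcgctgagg
The capitals in IRS2 (TGTTTTG) are the insulin response core on the opposite strand and begin 40 bases before the start. The capitals in FOXO4 (GTAAACA) begin at base 24 after the start, and those in IGFBP6 (GTAAACA) 186 bases before it. IRS1 held an E-box that began at base 36 after its start. Of all 35116 windows of this length, 3.42% held the forkhead core, 4.92% the insulin response core, 2.63% the ATF4 element's first letters and 7.26% the E-box. The starts are those of RefSeq and differ from the ends of the counted genes given below. The FOXO4 window ends before the counted gene, which begins at 71096197. The IGFBP3 window and the core in IGFBP6 lie inside the counted genes. These matches describe the letters in these windows and were not tested as binding sites.

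Libraries held between 27984517 and 43704155 reads counted to genes, of which 5.61% to 6.63% fell on mitochondrially encoded genes. The label was compared with marker genes. Of 16 hepatocyte genes, 15 had 34 reads or fewer over all 21 libraries, among them ALB, APOC3, SERPINA1, FGB, FGA and AHSG with 0 reads, which allows up to 0.00410 CPM (counts scaled to the library total) over the 21 libraries. CPS1, the mitochondrial enzyme that opens the urea cycle, was the exception with a mean of 2855 CPM, so that the list's sum of 2673 to 3099 CPM was almost wholly CPS1. Of 9 simple epithelial genes 4 reached 1 CPM (KRT7, KRT8, KRT18 and ELF3), while EPCAM had 0 reads, KRT19 had 1 read, and SOX9, CLDN4 and CDH1 were at 0.114, 0.268 and 0.663 CPM. Of 11 mesenchymal genes 7 reached 1 CPM. Apart from CPS1, the defining hepatocyte markers were thus at or near 0 in all 21 libraries, which goes against the HepG2 label: the cells may not be the line that the label names. They are called cells labelled HepG2 here, and the liver roles given for single genes are background only. The summed epithelial markers stood at 4070 to 4226 CPM at 100 µM and 4318 to 4590 CPM at 0 µM, and the mesenchymal markers at 1349 to 1408 CPM and 1416 to 1463 CPM. The mesenchymal sum, mostly COL3A1 (mean 936 CPM), was at 1357 to 1439 CPM at 0.001 µM, which overlaps its range at 100 µM. The epithelial sum at 10 µM was 4289 to 4407 CPM. None of the 5 endothelial and 6 leukocyte markers reached 1 CPM. The part of these marker differences in the results was not tested, and in bulk RNA fewer cells of a type and less RNA per cell cannot be told apart.

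Coumarin at 100 µM went with higher FOXO3 and IRS2 and with lower IGFBP3, IGFBP1 and IGF1R. These 5 of the 10 genes passed an adjusted p of 0.05 against 0 µM in edgeR's quasi-likelihood test, where 8.47% of all tested genes did (3.66% higher, 4.80% lower). The groups of 3 did not overlap for the same 5 genes, as for 27.0% of all genes. Against the 12 libraries of 0.001 to 1 µM, a reference that does not use the controls, 4 of the 10 passed, 2 higher and 2 lower (9.72% of all genes, 4.24% higher and 5.48% lower), and 3 did not overlap with those 12 (7.66% of all genes). The slope over log10 dose among the 6 treated groups passed for the same 4, FOXO3, IRS2, IGF1R and IGFBP3 (4.45% of all genes, 1.94% rising and 2.51% falling). These 3 comparisons share the 100 µM libraries. At 10 µM none of the 10 passed (0.327% of all genes, 0.241% higher and 0.0864% lower), with 3 at an unadjusted p under 0.05 (FOXO3, IRS2 and IGFBP3), as for 1976 of the 16196 genes. The groups of 10 µM and 0 µM did not overlap for 4 of the 10 (FOXO3, INSR, IRS1 and IRS2) and for 16.7% of all genes. At 0.001, 0.01, 0.1 and 1 µM none passed, with 0, 1, 1 and 1 of the 10 at an unadjusted p under 0.05. Over the whole table those 4 doses called 0, 1, 1 and 0 genes (0.0%, 0.00617%, 0.00617% and 0.0%) by edgeR, with 1364, 1427, 1015 and 633 at an unadjusted p under 0.05. The mean of these 4 doses against 0 µM called none of the 10 and 1 gene in all (0.00617%).

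**Figure D1:**
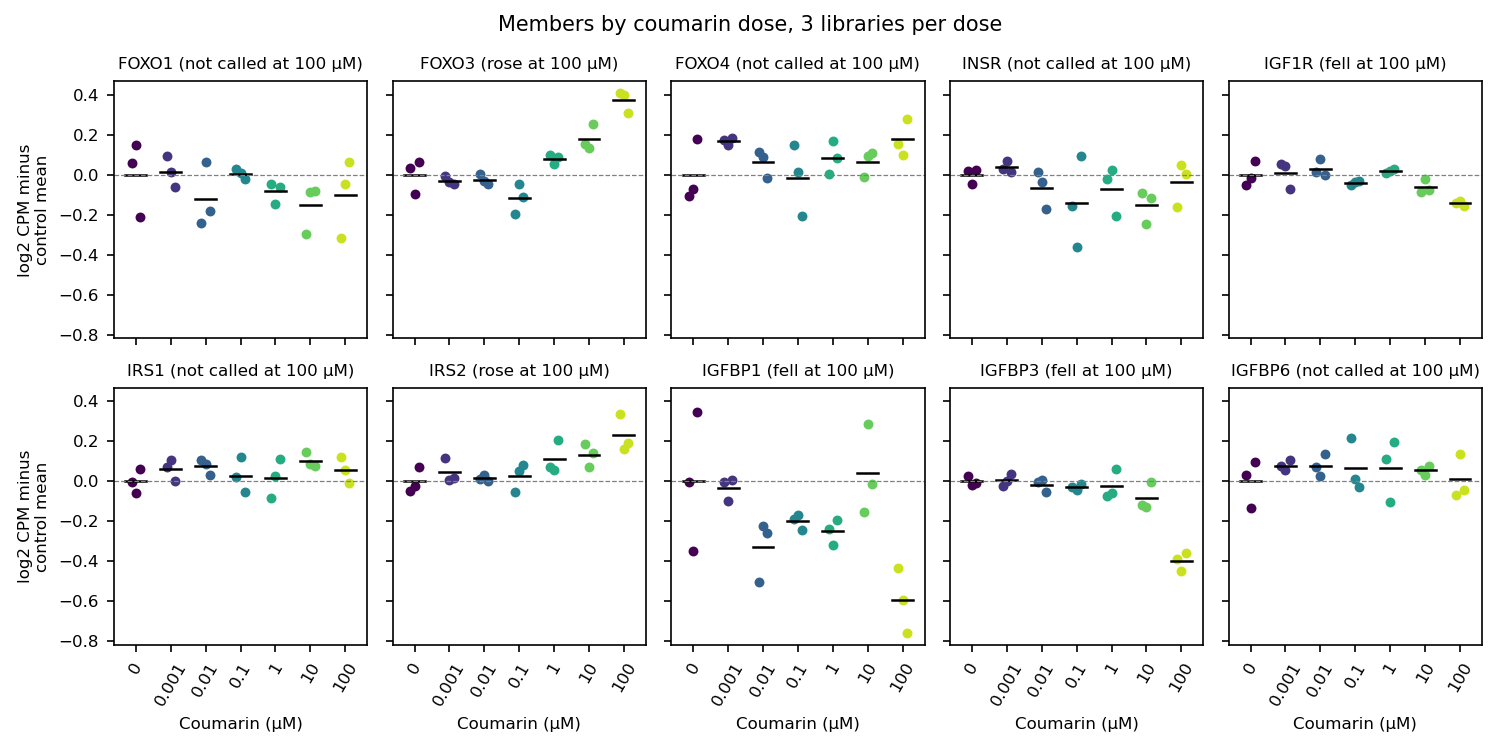
Values of the 10 genes by coumarin dose (µM, in categories), as log2 CPM minus the mean of the 3 controls; each point is 1 library and each bar the mean of 3. FOXO3 and IRS2 lie above the control line at 100 µM, IGF1R, IGFBP1 and IGFBP3 below it, and the IGFBP1 controls spread from 1.82 to 2.94 CPM.

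Of the receptors, IGF1R fell at 100 µM and INSR did not pass. IGF1R (chr15:98648539-98964530, plus strand), the receptor for IGF1 and IGF2, was at 206.6, 211.8 and 224.9 CPM in the controls and at 194.6, 195.7 and 192.5 CPM at 100 µM. The highest 100 µM library was below the lowest of the other 18, which was one of 10 µM at 201.6 CPM. The difference was a fall of 0.14 on the log2 scale (SE 0.04, n = 3 per group, edgeR adjusted p = 0.0166), to 0.906 of the control level. Against the 12 libraries of 0.001 to 1 µM the difference was -0.15 on the log2 scale (SE 0.03, edgeR adjusted p = 0.00158). The slope was -0.028 per 10-fold of dose (edgeR adjusted p = 0.00828). The call against 0 µM was lost without the third control (edgeR adjusted p = 0.0863), the first 100 µM library (edgeR adjusted p = 0.0561) or the third 100 µM library (edgeR adjusted p = 0.0656), and with an offset for gene length (difference -0.10, edgeR adjusted p = 0.116). The calls against the lower doses and over the slope were kept in each of the alternatives run.

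INSR (chr19:7112255-7294034, minus strand), the insulin receptor, was at 6.55, 6.26 and 6.56 CPM in the controls and at 5.77, 6.68 and 6.49 CPM at 100 µM. These groups overlapped, and the log2 difference of -0.03 had a 95% interval from -0.24 to 0.18. Its lowest mean, 5.83 CPM ± 0.335 (SD, n = 3), was at 10 µM, where the libraries lay below the controls without overlap, as for 16.7% of all genes in either direction, but the difference of -0.15 did not pass (edgeR adjusted p = 0.586). INSR was read at 160 to 281 counts per library, against 5904 to 9018 for IGF1R, so the interval is wider for INSR than for IGF1R.

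Of the adaptors, IRS2 rose and IRS1 did not pass. IRS2 (chr13:109752698-109786568, minus strand), whose promoter window holds the insulin response core shown above, was at 41.5, 42.3 and 45.1 CPM in the controls. At 100 µM it was at 54.3, 48.0 and 49.1 CPM, each above every control. The rise was 0.23 on the log2 scale, or 17.3% (SE 0.05, n = 3 per group, edgeR adjusted p = 0.00592). Against the 12 lower-dose libraries, whose range of 41.4 to 49.6 CPM overlapped that of 100 µM, the difference was 0.18 (SE 0.04, edgeR adjusted p = 0.00439). The slope was 0.039 per 10-fold of dose (edgeR adjusted p = 0.00841). The first 100 µM library, the highest of the 21, decided these calls: without it the adjusted p by edgeR was 0.0718 against 0 µM, 0.124 against the lower doses and 0.0569 for the slope. At 1 and 10 µM IRS2 was at 46.5 CPM ± 2.74 and 47.1 CPM ± 1.83 (SD, n = 3), and neither difference from 0 µM passed (at 10 µM 0.13, edgeR adjusted p = 0.292). A noncoding gene on the other strand shares 115 exonic bases with IRS2 (1.41% of its length) and had 8 reads in all.

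IRS1 (chr2:226731317-226799759, minus strand), the other widely expressed substrate, was at 41.2, 39.7 and 43.1 CPM in the controls and at 44.96, 43.04 and 41.06 CPM at 100 µM. The groups overlapped, and the log2 difference of 0.06 had a 95% interval from -0.05 to 0.17, which overlaps that of IRS2 from 0.12 to 0.34; the difference between the 2 genes was not tested. At 10 µM IRS1 was at 45.68, 43.86 and 43.60 CPM, each above the controls, and the difference of 0.10 did not pass (edgeR adjusted p = 0.446). The FPKM ratio of IRS2 to IRS1 was 1.23, 1.30 and 1.28 in the controls and 1.48, 1.36 and 1.46 at 100 µM, with a highest value of 1.41 at the 4 lower doses.

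Among the FOXO factors, FOXO3 rose with dose while FOXO1 and FOXO4 did not pass in any comparison. FOXO3 (chr6:108559835-108684774, plus strand), which drives genes of cell-cycle arrest, cell death and autophagy, was at 25.0, 22.9 and 25.6 CPM in the controls. Its means at 0.001, 0.01 and 0.1 µM were 23.96, 24.01 and 22.55 CPM, and at 1 µM it was at 26.22, 25.34 and 26.04 CPM. At 10 µM it was at 27.2, 26.8 and 29.1 CPM, each above all controls and all 12 lower-dose libraries; the groups of 10 µM and of these 12 did not overlap for 1.07% of all genes. At 100 µM it was at 32.4, 32.3 and 30.2 CPM, each above the other 18 libraries.

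The FOXO3 rise at 100 µM was 0.37 on the log2 scale, or 29.1% (SE 0.05, n = 3 per group, edgeR adjusted p = 2.388e-05). Against the lower doses it was 0.39 (SE 0.04, edgeR adjusted p = 6.197e-08), and the slope was 0.081 per 10-fold of dose (edgeR adjusted p = 3.547e-07). At 10 µM the difference of 0.18 from 0 µM did not pass (SE 0.05, edgeR adjusted p = 0.145). The gene has a near-identical processed pseudogene on chromosome 17, FOXO3B, and how reads that match both were counted is not given in the sources used here, so the FOXO3 level is uncertain to that extent. FOXO3B was counted at 3.39 CPM ± 0.576 at 0 µM and 4.05 CPM ± 0.200 at 100 µM (SD, n = 3), and its log2 difference of 0.26 did not pass (edgeR adjusted p = 0.205). With the counts of both summed as 1 gene, a setting chosen after the data were seen, the rise was 0.36 (edgeR adjusted p = 3.43e-05).

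FOXO1 (chr13:40469953-40666597, minus strand), the main FOXO factor of insulin-regulated glucose production in liver, was at 14.3, 15.2 and 11.9 CPM in the controls. At 100 µM it was at 11.04, 13.30 and 14.37 CPM, overlapping the controls, with a log2 difference of -0.09 and a 95% interval from -0.28 to 0.10. It shares 269 exonic bases (4.32% of its length) with LINC00598 on the same strand, which had 127 reads in all against 9680 for FOXO1. FOXO4 (chrX:71096197-71103535, plus strand), the X-linked member of the family, was at 6.61, 6.75 and 8.04 CPM in the controls and at 7.91, 7.61 and 8.61 CPM at 100 µM. Its log2 difference of 0.17 had a 95% interval from -0.02 to 0.36 (edgeR adjusted p = 0.265). The FPKM ratio of FOXO3 to FOXO1 was 1.41, 1.21 and 1.74 in the controls and 2.37, 1.96 and 1.70 at 100 µM, so the lowest 100 µM value lay under the highest control.

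**Figure D2:**
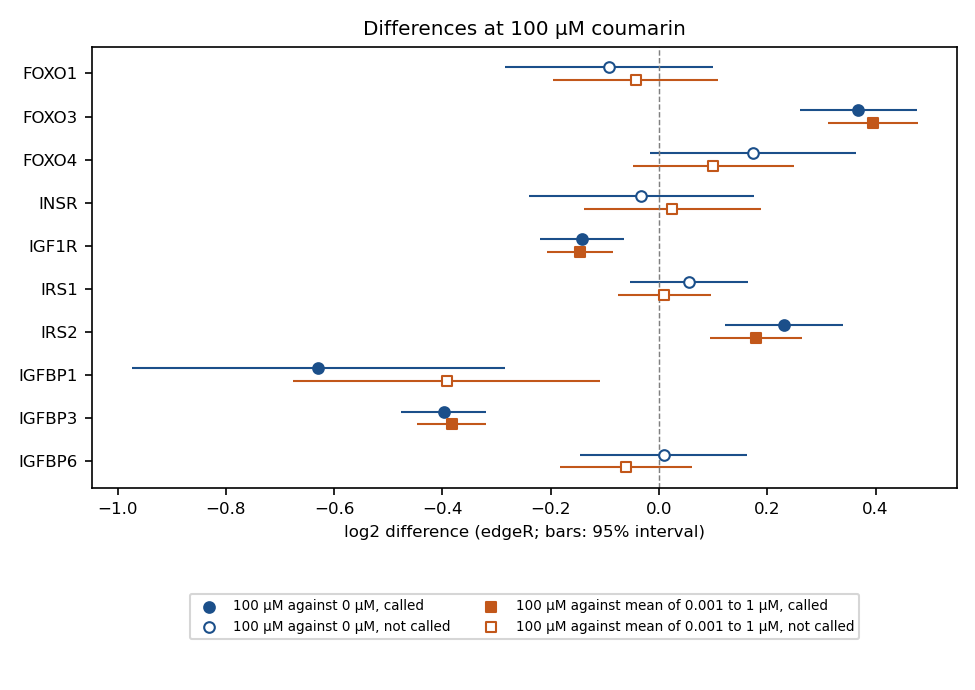
log2 differences (x axis) of the 10 genes (y axis) at 100 µM against 0 µM (circles) and against the mean of 0.001 to 1 µM (squares), with 95% intervals from edgeR; filled symbols passed an adjusted p of 0.05. FOXO3 (0.37 and 0.39) and IGFBP3 (-0.40 and -0.38) have nearly equal values in both, while IGFBP1 (-0.63 and -0.39) passed only against 0 µM.

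Of the binding proteins, IGFBP3 and IGFBP1 fell and IGFBP6 did not pass. IGFBP3 (chr7:45912245-45921874, minus strand), the main IGF carrier of plasma, was at 1034, 1005 and 1009 CPM in the controls and at 776.0, 746.1 and 791.6 CPM at 100 µM. The 18 libraries from 0 to 10 µM lay between 931.1 and 1060 CPM, so that the 100 µM libraries stood apart from all of them. The fall was 0.40 on the log2 scale, to 0.759 of the control level (SE 0.04, n = 3 per group, edgeR adjusted p = 3.175e-08). By p it ranked 28 of the 16196 genes in this comparison, while 1755 genes had a larger absolute difference. IGFBP3 was read at 23540 to 44907 counts per library, the most of the 10.

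The IGFBP3 difference against the lower doses was -0.38 (SE 0.03, edgeR adjusted p = 5.676e-10) and the slope -0.063 per 10-fold of dose (edgeR adjusted p = 1.123e-07). At 10 µM, with 936.5, 931.1 and 1015 CPM, the third library lay among the controls and the difference of -0.08 did not pass (edgeR adjusted p = 0.399). The means at the 4 lower doses, ran from 996.6 to 1021 CPM, on both sides of the control mean of 1016 CPM, and at 10 µM the mean was 960.9 CPM.

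IGFBP1 (chr7:45888357-45893668, plus strand), a secreted protein whose gene insulin represses in liver, was the scarcest of the 10 by reads, with 84, 52 and 100 counts in the controls and 52, 54 and 47 at 100 µM. Scaled for depth these were 2.31, 1.82 and 2.94 CPM in the controls and 1.71, 1.53 and 1.37 CPM at 100 µM. The groups did not overlap, and the fall was 0.63 on the log2 scale, to 0.647 of the control level (SE 0.17, n = 3 per group, edgeR adjusted p = 0.0177). The controls had a coefficient of variation of 23.9%, where counting alone gives 11.3%. Without the third control, the highest of the 21 libraries, the fall was 0.44 on the log2 scale with an edgeR adjusted p of 0.118, and without the second or the third 100 µM library the adjusted p by edgeR was 0.0502 or 0.0892. Against the 12 lower-dose libraries, at 1.63 to 2.32 CPM, the difference of -0.39 did not pass (edgeR adjusted p = 0.0715), nor did the slope of -0.050 (edgeR adjusted p = 0.393). The value at 10 µM, 2.40 CPM ± 0.383 (SD, n = 3), was close to the control mean of 2.36 CPM.

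IGFBP6 (chr12:53097436-53102345, plus strand), which binds IGF2 in preference to IGF1 and whose promoter window holds a forkhead core, was at 20.7, 18.4 and 21.6 CPM in the controls and at 19.3, 22.2 and 19.6 CPM at 100 µM. These groups overlapped, with a log2 difference of 0.01 and a 95% interval from -0.15 to 0.16. Its means over the 7 doses ran from 20.2 to 21.3 CPM.

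Between genes, levels were compared only in the deposited FPKM, which divide by gene length. At 0 µM IGFBP3 led with 228.0 FPKM ± 4.88 (SD, n = 3 here and below), above 99.1% of the tested genes and 14.5 times the next of the 10. IGF1R at 15.8 ± 0.680 and IGFBP6 at 15.4 ± 1.30 FPKM followed and overlapped. IRS2 at 5.42 ± 0.233, IRS1 at 4.26 ± 0.192 and FOXO3 at 3.25 ± 0.207 FPKM came next, each without overlap with its neighbour. FOXO1 at 2.27 ± 0.279 and FOXO4 at 2.12 ± 0.234 FPKM overlapped. IGFBP1 at 1.46 ± 0.353 and INSR at 0.634 ± 0.0203 FPKM were lowest, INSR being above 24.03% of tested genes. IGF1R thus stood 24.9 times above INSR in FPKM at 0 µM and 23.2 times at 100 µM. In the other doses the order changed only between the overlapping neighbours IGF1R and IGFBP6 and FOXO1 and FOXO4.

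**Figure D3:**
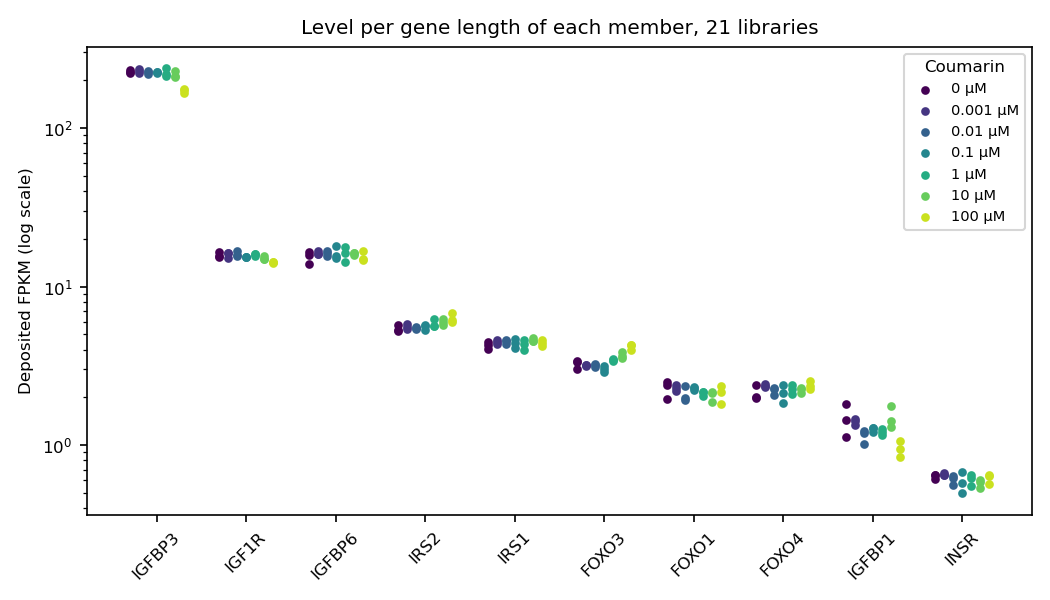
Deposited FPKM (log axis) of the 10 genes in each of the 21 libraries, ordered by their mean at 0 µM and coloured by coumarin dose. IGFBP3 stands at the top in every library and INSR at the bottom, and the 100 µM libraries of IGFBP3 (166.5 to 177.0 FPKM) lie under the others.

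IGFBP3 also made up most of the summed FPKM of IGFBP1 to IGFBP7. Its share was 72.2% ± 1.04 at 0 µM, from 69.6% to 71.7% in the means of the other doses up to 10 µM, and 66.1% ± 1.30 at 100 µM (SD, n = 3). IGFBP7, a matrix-associated relative that binds IGFs weakly, was second with 18.2% ± 0.584 at 0 µM and 22.4% ± 0.625 at 100 µM. IGFBP4 and IGFBP6 held 4.27% and 4.88% at 0 µM and 5.17% and 5.94% at 100 µM, and IGFBP1 held 0.463% and 0.365%. These are shares of 1 sum and move with IGFBP3. In CPM, IGFBP7 (107.8 and 110.3) and IGFBP4 (28.94 and 28.99) did not pass at 100 µM (log2 differences 0.03 and 0.00, edgeR adjusted p = 0.707 and 0.993). IGFBP7 shares 13.99% of its exonic bases with POLR2B on the other strand, whose reads cannot be told apart if strand was not used. IGFBP2 had 2 reads and IGFBP5 25 reads over the 21 libraries.

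The genes around the 10 were read from 7 lists with 122 genes, of which 101 were tested. At 100 µM against 0 µM 13 rose and 9 fell, or 21.8% of those tested beside 8.47% of all genes; the median log2 difference was 0.02 over the lists and 0.00 over all genes, and the median absolute difference 0.10 and 0.11. These shares were not compared by a test. The lists were chosen with earlier results of these data known, so the higher share cannot be read as a result about the pathway. Over all tested genes 3.66% rose and 4.80% fell in this comparison, which stands beside each list count below. Of the ligands and other receptors only IGF2R, the receptor that clears IGF2, was tested. It was at 173.6 CPM ± 8.34 at 0 µM and 184.6 CPM ± 2.60 at 100 µM and did not pass (edgeR adjusted p = 0.316). INS had 0 reads, IGF2 1, INSRR 4 and IGF1 16 in the 21 libraries.

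Among other binding proteins and factors of IGF release, 1 of 5 tested genes passed. STC2, a secreted glycoprotein that inhibits the IGFBP-cleaving protease PAPP-A, was at 44.2 CPM ± 0.612 at 0 µM and 99.8 CPM ± 2.21 at 100 µM (SD, n = 3), a rise of 1.18 on the log2 scale (SE 0.05, edgeR adjusted p = 4.612e-15). It also rose at 10 µM, by 0.47 (edgeR adjusted p = 3.598e-05), where none of the 10 genes passed. PAPPA and PAPPA2, which encode the proteases, did not pass (log2 differences -0.12 and -0.04, edgeR adjusted p = 0.319 and 0.959). IGFALS, a subunit of the plasma IGF complex, had 124 reads in all and STC1 19.

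Of 15 tested partners of the receptors 3 rose and none fell. GRB10, an adaptor that restrains both receptors, was at 4.67 CPM ± 0.591 at 0 µM and 8.93 CPM ± 0.351 at 100 µM, a rise of 0.94 (edgeR adjusted p = 1.836e-06). SH2B3, an adaptor that restrains cytokine receptors, rose by 0.53 from 2.50 CPM (edgeR adjusted p = 0.0276). It shares 69 exonic bases (1.21% of its length) with ATXN2 on the other strand. ATXN2 had 36086 reads in all against 1989 for SH2B3, and reads from the shared bases cannot be told apart if strand was not used. The SH2B3 call was lost without the first or second control or the first or second 100 µM library (edgeR adjusted p = 0.0994, 0.0995, 0.0934 and 0.139), and in limma with a pseudocount of 0.1 (adjusted p = 0.0529).

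Of 23 genes of the PI3-kinase and AKT core 1 rose and 2 fell, each by less than 0.20 on the log2 scale. PDPK1, the kinase that activates AKT, rose by 0.17 (edgeR adjusted p = 0.0447), a call lost without the first or the third control or the first or second 100 µM library (edgeR adjusted p from 0.115 to 0.171). That call was also lost in edgeR without a filter (adjusted p = 0.0854) or with only the libraries compared (adjusted p = 0.0529), and in limma with a pseudocount of 1 or 0.1 (adjusted p = 0.102 and 0.104). SGK1, an AKT-related kinase that also phosphorylates FOXO3, fell by 0.19 (edgeR adjusted p = 0.0166; without the second control 0.157 and without the third 100 µM library 0.0904). PIK3CB, a catalytic subunit of PI3-kinase, fell by 0.15 (edgeR adjusted p = 0.0258). Its adjusted p by edgeR was 0.111 without the second control, from 0.0535 to 0.0839 without each 100 µM library, and 0.0941 without a filter. It was at 54.9 CPM at 0 µM, but already at 50.2 CPM at 0.001 µM and at 49.5 CPM at 100 µM. Against the 12 lower-dose libraries PIK3CB (-0.06, edgeR adjusted p = 0.309) and PDPK1 (0.10, edgeR adjusted p = 0.120) did not pass, while SGK1 did (-0.13, edgeR adjusted p = 0.0337). Over the slope none of the 23 passed, where 4.45% of all tested genes did.

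Of 11 tested genes that restrain PI3-kinase and AKT 2 rose and 3 fell. TRIB3, a pseudokinase that binds AKT, went from 75.1 CPM ± 3.27 to 130.9 CPM ± 5.32 (SD, n = 3), a rise of 0.80 (edgeR adjusted p = 7.49e-12). DDIT4, an inhibitor of the AKT-linked kinase complex mTORC1, went from 136.9 CPM ± 10.6 to 224.2 CPM ± 8.88, a rise of 0.71 (edgeR adjusted p = 3.306e-08), and also rose at 10 µM by 0.30 (edgeR adjusted p = 0.0499). That call at 10 µM lay just under the threshold. The DDIT4 libraries of 10 µM (159.3 to 180.1 CPM) lay within the range of those of 1 µM (144.7 to 187.4 CPM). The phosphatase genes PPP2R5C and PHLPP1 fell by 0.28 and 0.23 (edgeR adjusted p = 0.000236 and 0.00461).

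Of 21 tested regulators of FOXO proteins none rose and 3 fell, each by less than 0.20 on the log2 scale. YWHAZ, a 14-3-3 protein that holds phosphorylated FOXO in the cytoplasm, fell by 0.18 (edgeR adjusted p = 0.00171), USP7, a deubiquitinase, by 0.14 (edgeR adjusted p = 0.00507) and SKP2, a ubiquitin ligase subunit, by 0.14 (edgeR adjusted p = 0.00578). Of 25 tested genes listed as FOXO targets 6 rose and 1 fell, where 3.66% of all tested genes rose and 4.80% fell. The list median was 0.06. TXNIP, a thioredoxin-binding protein, went from 28.6 CPM ± 0.559 to 41.9 CPM ± 1.52 (log2 difference 0.55, edgeR adjusted p = 6.461e-09). CDKN1A, the cell-cycle inhibitor p21, rose by 0.43 (edgeR adjusted p = 0.000105) and GADD45A, a stress-response gene, by 0.34 (edgeR adjusted p = 6.636e-05). The other 3 that rose were the cell-death genes BCL2L11 (0.36, edgeR adjusted p = 0.0147) and BBC3 (0.42, edgeR adjusted p = 0.0182) and the transcriptional regulator CITED2 (0.18, edgeR adjusted p = 0.0122). Each of these 3 calls was lost in some of the runs with 1 library left out. Over those runs the differences ranged from 0.34 to 0.38 (BCL2L11), 0.30 to 0.54 (BBC3) and 0.14 to 0.21 (CITED2). BCL2L11 lost its call without the first control (edgeR adjusted p = 0.0638) or the third 100 µM library (0.0570), and CITED2 without the second control (0.0918) or the first 100 µM library (0.0591). BBC3 lost its call without the first or second control (edgeR adjusted p = 0.153 and 0.0525) or the first or the third 100 µM library (0.0564 and 0.0628). BCL2L11 also shares 727 exonic bases (10.92% of its length) with MIR4435-2HG on the other strand. That gene had 8323 reads in all against 6272 for BCL2L11, and reads from the shared bases cannot be told apart if strand was not used. The count of 7 was 4 without the first control and 4 without the third 100 µM library. GABARAPL1, an autophagy gene, fell by 0.14 (edgeR adjusted p = 0.0121; without the first control 0.0612 and without the third 100 µM library 0.0536). Several of these genes are also known as targets of other transcription factors. At 10 µM none of the 25 passed, where only 0.327% of all tested genes did.

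**Figure D4:**
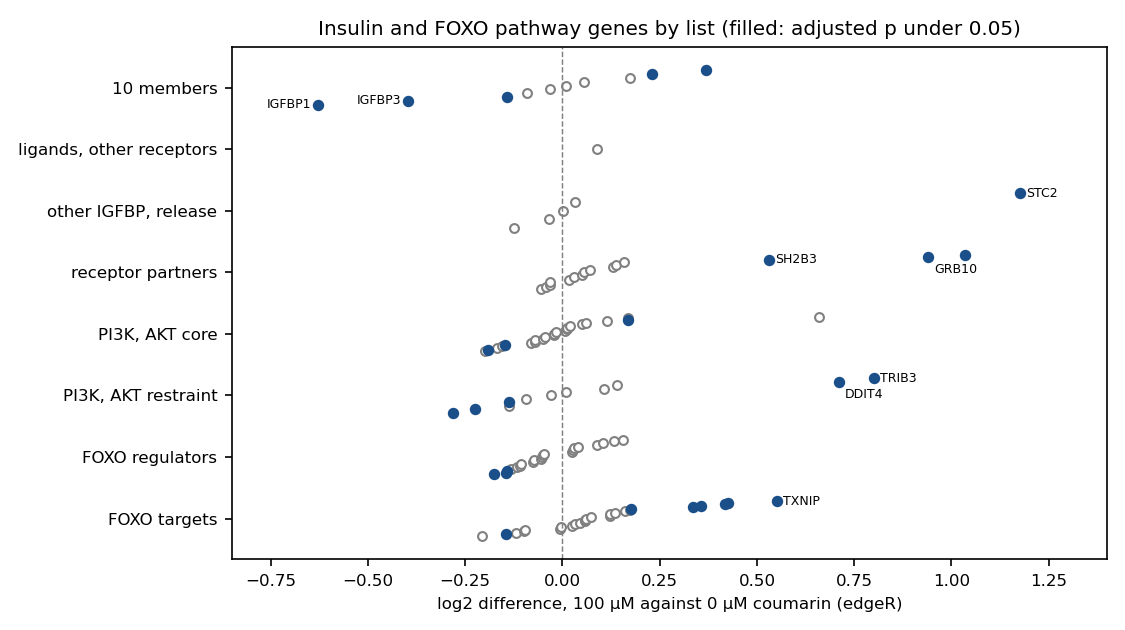
log2 differences at 100 µM against 0 µM (x axis) of the 10 genes and of the tested genes of 7 pathway lists (y axis); each circle is 1 gene, ordered within its list, and filled circles passed an edgeR adjusted p of 0.05. STC2 (1.18), GRB10 (0.94), TRIB3 (0.80) and DDIT4 (0.71) are among the points beyond the 0.63 fall of IGFBP1 in size.

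For each of the 5 genes that passed at 100 µM, the 3 genes most like it were found by the root mean square difference in log2 CPM over the 21 libraries, each gene centred on its own mean, among 11619 genes. The patterns share libraries and depth, so the likeness is a description. For FOXO3 they were MTHFD2, a mitochondrial folate enzyme (0.08), ZFAS1, a noncoding snoRNA host (0.08), and SLC6A9, a glycine transporter (0.08), where FOXO3 itself varied by 0.16 about its mean. For IGFBP3 they were SLC43A3 (0.05), KCNN4, a potassium channel (0.05), and SMAD3, a TGF-beta signal transducer (0.06), where IGFBP3 varied by 0.14. For IRS2 they were WWC3 (0.05), TRIM25, a ubiquitin ligase (0.06), and SLC7A1, a transporter of cationic amino acids (0.06), where IRS2 varied by 0.09. For IGF1R they were SLC6A6, a taurine transporter (0.03), BCL9 (0.03) and PODXL (0.04), where IGF1R varied by 0.07. For IGFBP1 the nearest, GALNT3 (0.15), ISPD (0.18) and SLC25A45 (0.18), stood beside a spread of 0.25 in IGFBP1 itself. Of these 15 genes, BCL9 and SLC25A45 did not pass at 100 µM against 0 µM, and the others did. Over all tested genes 8.47% passed. The 15 were picked for likeness, over the same libraries, to genes called in that comparison. How many of them passed thus follows largely from the choice and is no result about them.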

How the data were processed

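Poly(dT)-selected RNA of 21 libraries was sequenced. Reads were aligned with HISAT2 to GRCh38, per the submitters' processing notes, which also name DESeq2; for the counter, its use of strand and its handling of reads with several matches, no source used here gives details. The deposited values are raw counts per gene and FPKM from the authors, with a gene length. The FPKM equalled counts per length over 1 constant per library, which was 0.948 to 1.00 of the count total. Gene positions equalled GENCODE v29 for 99.98% of genes.

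Counts were tested in edgeR 4.0.16 (quasi-likelihood, filterByExpr, TMM scaling, 7 groups in 1 fit, Benjamini-Hochberg over 16196 genes, threshold 0.05). The log2 differences come from that fit. CPM printed are TMM-scaled, except those of the cell-type markers and the limits for a count of 0, which are scaled to the library total alone. 95% intervals are for single genes, unadjusted. The 9 comparisons were each dose against 0 µM, the slope over log10 dose in the 6 treated groups, 100 µM against the mean of 0.001 to 1 µM, and that mean against 0 µM. No 2 replicates of a dose agreed within counting error (chi-square divided by its degrees of freedom, 2.68 to 12.2). Alternatives were DESeq2 1.42.0 and its size factors, limma 3.58.1 on log2(FPKM + 1) and log2(FPKM + 0.1), no filter, a filter of 1 CPM in 3 libraries, a replicate block, a gene length offset, only the libraries compared, each replicate left out and, for levels, CPM per kilobase.

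The 10 genes and the lists were chosen with earlier results of these data known. Genes named were all 10, every gene of the ligand and other IGFBP lists, up to 4 called genes with the smallest p from each other list, and the 3 most alike genes (mean log2 CPM of at least 1) for each called gene; BCL2L11, BBC3 and CITED2 were named after their values were seen. List counts include all tested genes, and the values of some single genes are not reported here. A count of 0 allows up to 3 counts (0.0686 to 0.107 CPM per library), which covers counting error only.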

Additional observations from a re-analysis of the deposited data

How the results depend on the processing

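Over 1740 recomputed values of the 10 genes in the 9 comparisons, 0 changed direction as a call, 10 lost a call and 2 gained one; 55 values that were not called took the other sign. FOXO3 and IGFBP3 kept their calls at 100 µM, against the lower doses and over the slope in every alternative run. The 10 lost calls belonged to IGF1R, IRS2 and IGFBP1, as given above, and the 2 gained to IGFBP1 against the lower doses (adjusted p 0.0464 in edgeR with only the libraries compared, 0.0384 in limma with a pseudocount of 0.1). With 1 replicate left out the number of the 10 called at 100 µM was 3 to 5, over the slope 3 to 4 and against the lower doses 3 to 4, and 0 in the other 6 comparisons. The IGFBP3 level of 228.0 FPKM was 222.2 as CPM per kilobase. The counts over all genes at 10 µM (53) ranged from 17 to 379 over the alternatives and from 7 to 47 with 1 replicate left out, and at 100 µM from 705 to 1637 with 1 left out; without a filter the 4 lowest doses and their mean called 41 to 66 genes. With 1 replicate left out, the slope called 470 to 819 genes and 100 µM against the lower doses 849 to 1919. The 3 receptor partners called were 1 without the first or second control or the first 100 µM library, the 3 core genes were 1 without the second control or any 1 library of 100 µM and 5 with only the libraries compared, and the 3 FOXO regulators were 5 without the third control, 5 in DESeq2 or without a filter and 7 with the gene length offset. The cause was not tested.

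Replicate numbers did not pair the samples: deviations of same-numbered libraries correlated between -0.095 and 0.075. With the replicate block 5, 4 and 4 of the 10 genes were called at 100 µM, over the slope and against the lower doses, as without it, and none in the other comparisons; PDPK1 lost its call (adjusted p 0.0504). Depth limits IGFBP1 (47 to 100 counts per library) and INSR (160 to 281) most.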
